A study of Mus musculus with 115 samples.

Results

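The genes described here are 10 neuronal tubulins and microtubule-associated proteins: the beta tubulins Tubb2a, Tubb2b, Tubb3 and Tubb4a, the alpha tubulin Tuba1a, and Map1b, Map2, Map6, Mapt and Dclk1. They were taken by name from the deposited count table, 10 of its 22870 genes, and followed in every cell over both treatments and both EGFP classes. They were chosen by name with their CPM per cell (counts scaled to a total of 1000000) in these groups and title series already known, so their levels and differences are given as a description, with no test.

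Microtubules are polymers of alpha and beta tubulin dimers that give axons and dendrites their shape and serve as tracks for transport. The tubulin genes encode closely related proteins that differ mainly in their acidic tails, and neurons use a mixture of them. Microtubule-associated proteins bind the polymer and set how stable and how tightly bundled it is. In the dentate gyrus, granule cells carry a spine-bearing dendritic tree and send mossy fibre axons to the hilus and CA3. The study asked about granule cells whose axon reaches the other hippocampus (commissural cells) and those not labelled from there.

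The study sampled dentate granule cells of Rbp4-Cre transgenic mice by drawing the cytosol of 1 cell at a time into a patch pipette. All mice received a retrograde virus (retroAAV-EGFP) in the right ventral hippocampus, which labels cells whose axons reach that side, and a Cre-dependent mCherry virus (AAV.cDIO-mCherry) in the left hippocampus. The left injection held either kainic acid (KA), an agonist of glutamate receptors used to provoke seizures, or saline. Cells were taken on the left 2 weeks later, with or without mCherry, so Cre did not select them. The 95 cells of the quality-controlled table comprise 27 KA EGFP+, 36 KA EGFP-, 5 saline EGFP+ and 27 saline EGFP- cells. The design text states 9, 3, 3 and 3 mice for these groups in that order and 27, 36, 5 and 57 cells passing quality control, so 30 of the stated saline EGFP- cells were not analysed here. The age and sex of the mice are not given in the labels. Of the 95 cells 13 carry a failed quality label, and for 10 of them the next title is absent from the table, so the quality labels look displaced by 1 title. The treatment and EGFP labels were used as given. They give the stated number of passing cells in KA EGFP+, KA EGFP- and saline EGFP+ (27, 36 and 5), whereas labels taken from the title before give 28, 30 and 4 for the 91 cells that then have one. If some of these labels are displaced too, the comparisons would change. No label ties a cell to a mouse, so each group counts as 1 sample, and the SDs below are spreads over cells.

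Total counts per cell ranged from 1277978 to 56183007. Titles run in a first series (1 to 48, KA cells only) and a second series of higher numbers, called series 1 and series 2 below, and what separates them is not stated in the labels. Series 1 holds 24 of the KA EGFP+ and 21 of the KA EGFP- cells, series 2 the other 3 and 15 and all saline cells. Inside series 2, KA and saline cells alternate in blocks of neighbouring titles and do not mix within a block. Median genes detected in KA EGFP+ cells were 6383 for series 1 and 4289 for series 2. For KA EGFP- cells they were 6974 and 3707. The medians of saline cells were 4325 (EGFP+) and 4448 (EGFP-). Treatment cannot be told apart from title series wherever series 1 cells enter. Of 8 granule cell markers, 5, 4, 6 and 7 had a count in at least 50% of KA EGFP+, KA EGFP-, saline EGFP+ and saline EGFP- cells, and none was at 0 in any group. Their summed share of counts had a median of 0.0855% in KA EGFP+, 0.0747% in KA EGFP-, 0.153% in saline EGFP+ and 0.291% in saline EGFP- cells. The 4 general neuron markers stood at medians of 0.363%, 0.341%, 0.181% and 0.321% in the same order. The 6 interneuron markers stood at 0.0662% in KA EGFP+, 0.0761% in KA EGFP-, 0.00133% in saline EGFP+ and 0.0228% in saline EGFP- cells, and at 0.1003% in series 2 KA EGFP- cells. Of these 6, 1, 2, 3 and 0 were at 0 in the 4 groups, and their part in the differences below was not tested. Microglia marker counts reached 0.1% of all counts in 10, 5, 4 and 11 cells of these groups.

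The 4 beta tubulins differ in how well reads can tell them apart. The last 90 coding bases, which encode the acidic tail and end with the stop codon, are shown to make this visible (GENCODE M21 annotation, build GRCm38). In Tubb2a (chr13:34074468-34074557, minus strand) and Tubb2b (chr13:34127471-34127560, minus strand) capitals mark the bases at which this pair differs. In Tubb3 (chr8:123421593-123421682, plus strand) and Tubb4a (chr17:57080690-57080779, minus strand) capitals mark the stop codon.
Tubb2a: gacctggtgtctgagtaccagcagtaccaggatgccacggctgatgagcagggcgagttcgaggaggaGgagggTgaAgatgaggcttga
Tubb2b: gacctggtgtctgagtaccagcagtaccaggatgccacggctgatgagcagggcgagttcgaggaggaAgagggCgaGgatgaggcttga
Tubb3: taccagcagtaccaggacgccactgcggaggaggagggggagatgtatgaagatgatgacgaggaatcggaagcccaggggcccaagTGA
Tubb4a: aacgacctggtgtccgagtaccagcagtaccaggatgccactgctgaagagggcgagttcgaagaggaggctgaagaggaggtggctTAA
Tubb2a and Tubb2b differ at only 3 of these 90 bases, and their whole coding sequences are 96.5% identical, with 47 differing positions of 1338. The other pairs among the 4 genes are 82.4% to 84.5% identical. Of all 50-base windows of the transcript, 49.6% in Tubb2a and 39.3% in Tubb2b also occur in another gene, in most cases the other of this pair. In Tubb3 this share is 0% and in Tubb4a 0.184%. In Tuba1a 75.5% of windows recur in other genes, among them Tuba1c, and 26.2% of its exon bases overlap Gm49450 on the same strand. Values of Tubb2a, Tubb2b and Tuba1a therefore carry an uncertainty from read assignment that the other members do not. Map1b, Map6 and Mapt share no window, Map2 0.274% and Dclk1 0.539%.

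Scaled by exon length, the order of the genes differed between the KA groups, which are mostly of title series 1, and the saline groups, which are all of series 2. Exon length here joins the exons of all annotated transcripts of a gene, 15296 bases for Dclk1 and 7531 for Mapt. The transcripts used for the windows above are shorter, 7847 and 2250 bases. The rank of Tubb3 above Dclk1 in the KA groups depends on this choice of length. Median CPM per kilobase of exon was highest for Tubb2a, at 628 in KA EGFP+ and 617 in KA EGFP- cells, against 16.7 in saline EGFP+ and 181 in saline EGFP- cells. Tuba1a had rank 2 in both KA groups, at 504 and 536, and rank 1 in both saline groups, at 217.7 and 317. Tubb4a, a neuronal beta tubulin also made by myelinating oligodendrocytes, had rank 3 in both KA groups, at 248.8 and 237.8, but rank 6 in saline EGFP+ and rank 8 in saline EGFP- cells, at 0.702 and 0.384. Tubb3, the beta tubulin used as a neuron marker, had rank 4 at 93.2 and 89.8 in KA EGFP+ and KA EGFP- cells, with 0 in saline EGFP+ and 0.349 in saline EGFP- cells. Dclk1 and Map1b were neighbours with close values in both KA groups (54.4 and 53.0 in KA EGFP+, 59.5 and 50.1 in KA EGFP-), well within their spread over cells. Map6 and Tubb2b closed the order in both KA groups. In series 2 KA EGFP- cells alone, the medians were 524 for Tubb2a, 484 for Tuba1a, 16.4 for Tubb4a, and 0 for both Tubb3 and Map6. Among saline EGFP- cells the last 3 places went to Tubb4a, Tubb3 and Map6, whose values of 0.384, 0.349 and 0 do not differ beyond their spread over cells.

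**Figure D1:**
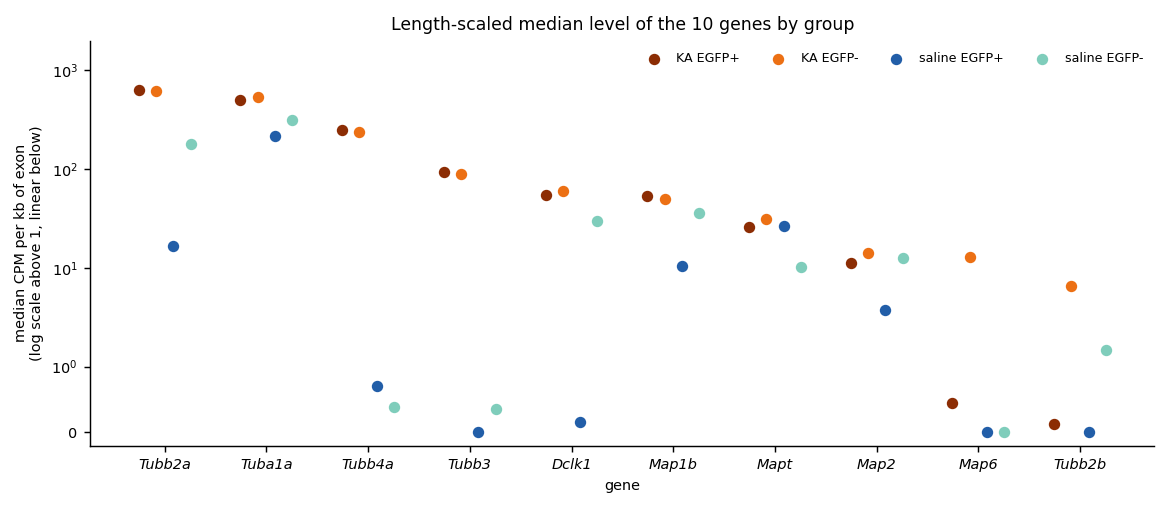
Median level of each gene over the cells of a group, in CPM per kilobase of exon, with 1 point per group. Tubb4a and Tubb3 lie at 89.8 or more in both KA groups and at 0.702 or less in both saline groups, whereas Map2 differs little between KA and saline EGFP- cells. In the series 2 KA EGFP- cells alone, Tubb4a is at 16.4 and Tubb3 at 0.

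Tubb2a, a beta tubulin of mature and growing neurons, was present in nearly every KA cell. Its CPM (lowest, median and highest cell) were 0, 1011 and 2196 in KA EGFP+, 0, 993 and 2977 in KA EGFP-, 0, 26.8 and 308 in saline EGFP+, and 0, 292 and 1141 in saline EGFP- cells. The groups overlapped, and the median and the highest cell were higher in both KA groups than in both saline groups. At least 100 CPM were reached by 25 of 27 KA EGFP+, 33 of 36 KA EGFP-, 2 of 5 saline EGFP+ and 17 of 27 saline EGFP- cells. In series 2 alone, KA EGFP- cells had a median of 844 CPM and 12 of 15 reached 100 CPM. Pooled over cells, Tubb2a stood at 1153 CPM (95% Poisson interval 1149 to 1157) in KA EGFP- and 404 CPM (401 to 408) in saline EGFP- cells. Poisson intervals cover counting error only, since reads carry no molecular identifiers. A count of 0 allows up to 2.35 CPM in the shallowest and 0.0534 CPM in the deepest cell (3 counts).

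Tubb4a was either high or absent in most KA EGFP- cells. Its lowest, median and highest CPM were 0, 554 and 1302 in KA EGFP+, 0, 530 and 2113 in KA EGFP-, 0, 1.56 and 57.3 in saline EGFP+, and 0, 0.856 and 573 in saline EGFP- cells. Of 29 KA EGFP- cells with any Tubb4a count, 28 were above 100 CPM, and of 15 such saline EGFP- cells 10 were. In series 1 all 21 KA EGFP- cells had at least 160 CPM, whereas in series 2 the median KA EGFP- cell had 36.6 CPM and 7 of 15 lay at 0. The summed share of 7 oligodendrocyte markers had medians of 0.0134% in KA EGFP+, 0.0135% in KA EGFP-, 0.00329% in saline EGFP+ and 0.00785% in saline EGFP- cells, with none of the 7 at 0 in any group but saline EGFP+, where 2 were. The part of oligodendrocyte RNA in the Tubb4a level was not tested.

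By medians and by means of log2 levels, Tubb3 differed more between title series than between treatments inside series 2. By pooled CPM it was the other way round, with a ratio of 1.68 for series 1 over series 2 in KA EGFP- cells and of 5.11 for KA over saline EGFP- cells inside series 2. Per cell, the lowest, median and highest CPM were 0, 174 and 457 in KA EGFP+, 0, 168 and 665 in KA EGFP-, 0, 0 and 329 in saline EGFP+, and 0, 0.652 and 210 in saline EGFP- cells. The median of KA EGFP- cells was 227.4 CPM in series 1 and 0 in series 2. In series 2, 3 of 15 KA EGFP- and 3 of 27 saline EGFP- cells reached 100 CPM. After thinning every cell to 1000000 counts, a Tubb3 count was present in 95.2% of series 1 KA EGFP- cells (exact Clopper-Pearson 95% interval 76.2% to 99.9%), 40% of series 2 KA EGFP- cells (16.3% to 67.7%) and 48.1% of saline EGFP- cells (28.7% to 68.1%). The interval of series 2 KA cells contains the saline share, but these intervals take cells as independent and leave out differences between mice. The 8 immature neuron markers, among them Dcx, made up medians of 0.0247%, 0.0177%, 0.00225% and 0.0153% of counts in KA EGFP+, KA EGFP-, saline EGFP+ and saline EGFP- cells.

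Tubb2b, a tubulin of developing neurons that shares much of its sequence with Tubb2a, was low in most cells of all groups. Its lowest, median and highest CPM were 0, 0.304 and 301 in KA EGFP+, 0, 14.97 and 584 in KA EGFP-, 0, 0 and 5.09 in saline EGFP+, and 0, 3.36 and 557 in saline EGFP- cells. At least 100 CPM were reached by 4, 3, 0 and 3 cells of these groups.

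**Figure D2:**
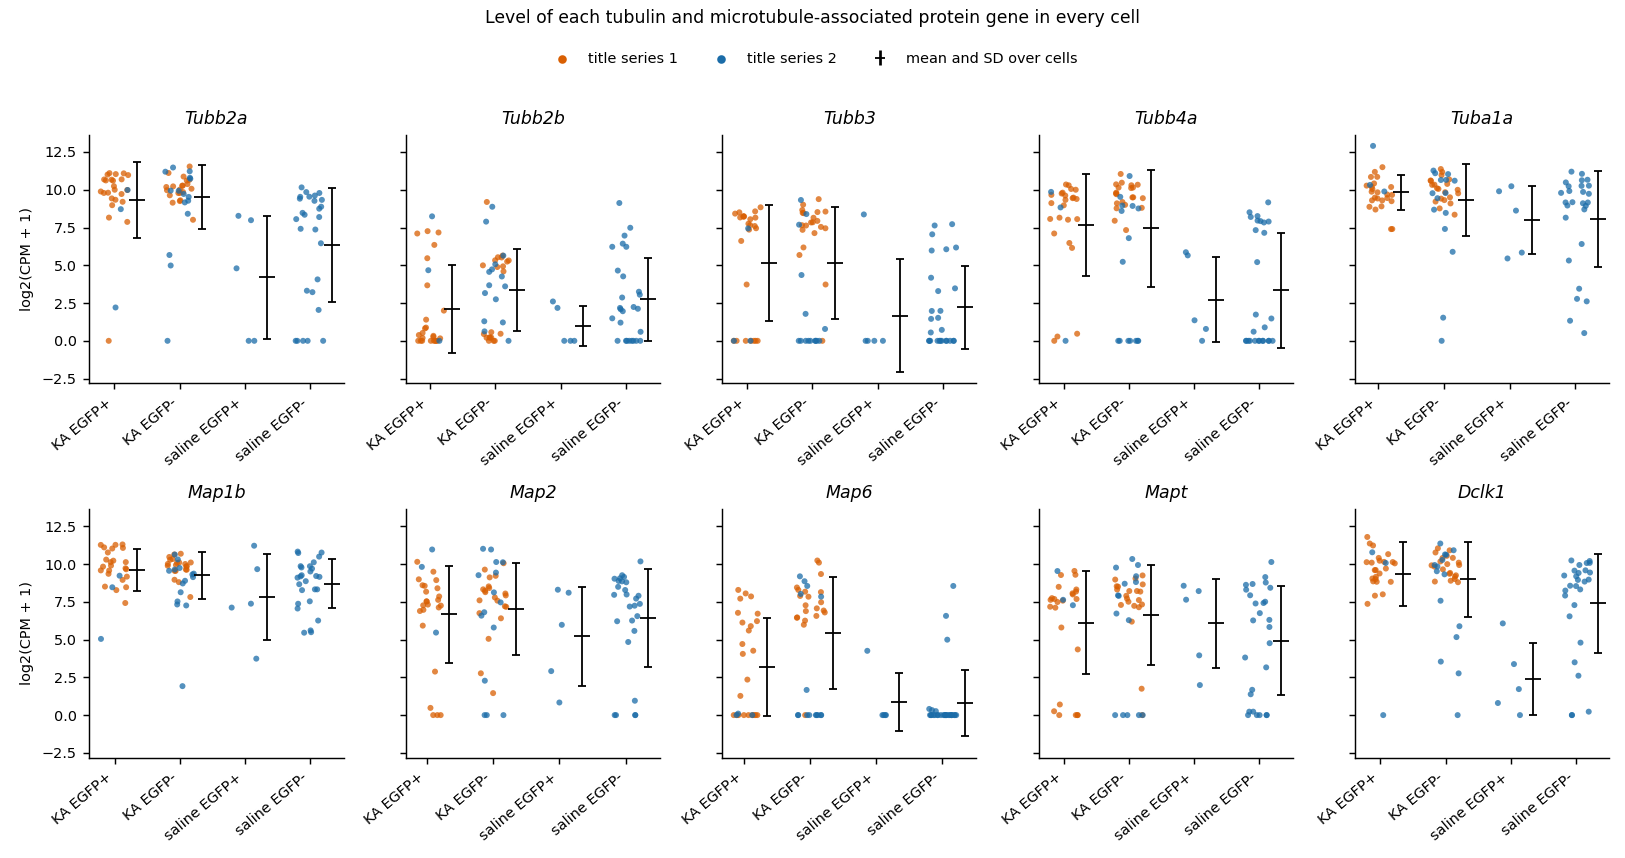
Each point is 1 cell, placed by log2(CPM + 1) for 1 gene and coloured by title series. Bars beside the points give the mean and SD over cells of each group. Tubb3 has 43 cells at 2 or less, 12 between and 40 at 7 or more, Tubb4a 30, 7 and 58, and Map6 52, 21 and 22. Of the cells at 2 or less, 35, 27 and 41 are of title series 2, which holds 50 of the 95 cells.

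The 4 beta tubulins together had a median of 2005 CPM in KA EGFP+, 2041 in KA EGFP-, 315 in saline EGFP+ and 566 in saline EGFP- cells. Within series 2 the median was 870 in KA EGFP- cells, above the saline EGFP- value and below the 2359 of series 1. Scaled by exon length, Tubb2a was the highest of the 4 in 25 of 27 KA EGFP+, 31 of 36 KA EGFP-, 2 of 5 saline EGFP+ and 18 of 27 saline EGFP- cells. Tubb4a led in 1, 4, 1 and 3 cells. Of the pooled, length-scaled beta tubulin level, Tubb4a held 25.2% in KA EGFP+, 29.2% in KA EGFP-, 10.9% in saline EGFP+ and 13.7% in saline EGFP- cells. Among KA EGFP- cells this share was 33.02% in series 1 and 13.03% in series 2, and the pooled series 2 share was within 1 percentage point of the saline EGFP- share. Per cell the likeness was not seen. By CPM without length scaling, the median Tubb4a share was 7.33% in series 2 KA EGFP- and 17.6% in saline EGFP- cells. The median Tubb2a share was 86.7% and 62.3%. The mixture of beta tubulins differed by title series among KA EGFP- cells, while the median summed level was above saline in both series.

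Tuba1a, the main alpha tubulin of neurons, was present in almost every cell. Per cell, the lowest, median and highest CPM were 167, 909 and 7658 in KA EGFP+, 0, 967 and 2649 in KA EGFP-, 42.8, 393 and 1201 in saline EGFP+, and 0.428, 571 and 2349 in saline EGFP- cells. The medians were higher after KA, and the ranges overlapped throughout. Pooled levels were 1068 CPM (1064 to 1072) in KA EGFP- and 779 CPM (774 to 785) in saline EGFP- cells.

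Map1b, which binds microtubules in growing axons and stays on in the adult, was the one member with a count in all 95 cells. Its lowest, median and highest CPM were 31.97, 840 and 2514 in KA EGFP+, 2.78, 793 and 1641 in KA EGFP-, 12.3, 165 and 2371 in saline EGFP+, and 42.9, 567 and 1810 in saline EGFP- cells. The SD of its log2 level was 1.38 in KA EGFP+, 1.56 in KA EGFP-, 2.84 in saline EGFP+ and 1.61 in saline EGFP- cells, against 3.35, 3.88, 2.81 and 3.82 for Tubb4a, so it was the less variable of the pair in 3 of the 4 groups.

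Map2, which binds microtubules of dendrites, had medians of 182 CPM in KA EGFP+, 230.7 in KA EGFP-, 61.9 in saline EGFP+ and 208.7 in saline EGFP- cells. Its highest cells stood at 1994, 2059, 314 and 1153 CPM, and its lowest at 0 in 3 groups and at 0.782 in saline EGFP+ cells. Pooled, KA EGFP- cells had 259.1 CPM (257.2 to 261.1) and saline EGFP- cells 256.7 CPM (253.8 to 259.6). Over both title series, these are the closest pooled levels of any member between treatments in EGFP- cells. The deepest cell is a KA EGFP- cell of 56183007 counts at 32.1 CPM. Without it, the log2 ratio of these pooled levels was 0.31 in place of 0.01. Inside series 2 alone, pooled Map2 was 437.6 CPM in KA EGFP- cells, a ratio of 1.70 to saline EGFP- cells. In that set Map1b had the closest pooled levels, with a ratio of 0.91.

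Mapt encodes tau, which binds microtubules of axons. Per cell, the lowest, median and highest CPM were 0, 197 and 744 in KA EGFP+, 0, 236.9 and 1289 in KA EGFP-, 2.97, 198 and 377 in saline EGFP+, and 0, 76.0 and 1123 in saline EGFP- cells. The saline EGFP- median was the low one of the 4. In KA EGFP- cells the median was 237.4 CPM in series 1 and 236.3 in series 2, but 1 of 21 cells in series 1 and 5 of 15 in series 2 had no count.

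Map6, a protein that makes microtubules resistant to cold and drugs, was rare in saline cells. It had a count in 16 of 27 KA EGFP+, 26 of 36 KA EGFP-, 1 of 5 saline EGFP+ and 6 of 27 saline EGFP- cells. Its lowest, median and highest CPM were 0, 4.10 and 311 in KA EGFP+, 0, 119 and 1202 in KA EGFP-, 0, 0 and 18.1 in saline EGFP+, and 0, 0 and 373 in saline EGFP- cells. At least 100 CPM were reached by 6, 20, 0 and 1 cells. In series 2, 5 of 15 KA EGFP- cells reached that level, against 1 of 27 saline EGFP- cells. After thinning, 95.2% of series 1 KA EGFP- cells (76.2% to 99.9%), 40% of series 2 KA EGFP- cells (16.3% to 67.7%) and 18.5% of saline EGFP- cells (6.3% to 38.1%) had a count. The last pair of intervals overlaps, and these intervals also leave out differences between mice. Pooled levels were 286 CPM (284 to 288) in KA EGFP- and 24.1 CPM (23.2 to 25.03) in saline EGFP- cells.

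Dclk1, a doublecortin-related kinase that binds microtubules, was high in 3 groups and low in the fourth. Per cell, the lowest, median and highest CPM were 0, 832 and 3545 in KA EGFP+, 0, 910 and 2625 in KA EGFP-, 0, 2.30 and 66.2 in saline EGFP+, and 0, 457 and 1205 in saline EGFP- cells. At least 100 CPM were reached by 26 of 27, 31 of 36, 0 of 5 and 20 of 27 cells of these groups.

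**Figure D3:**
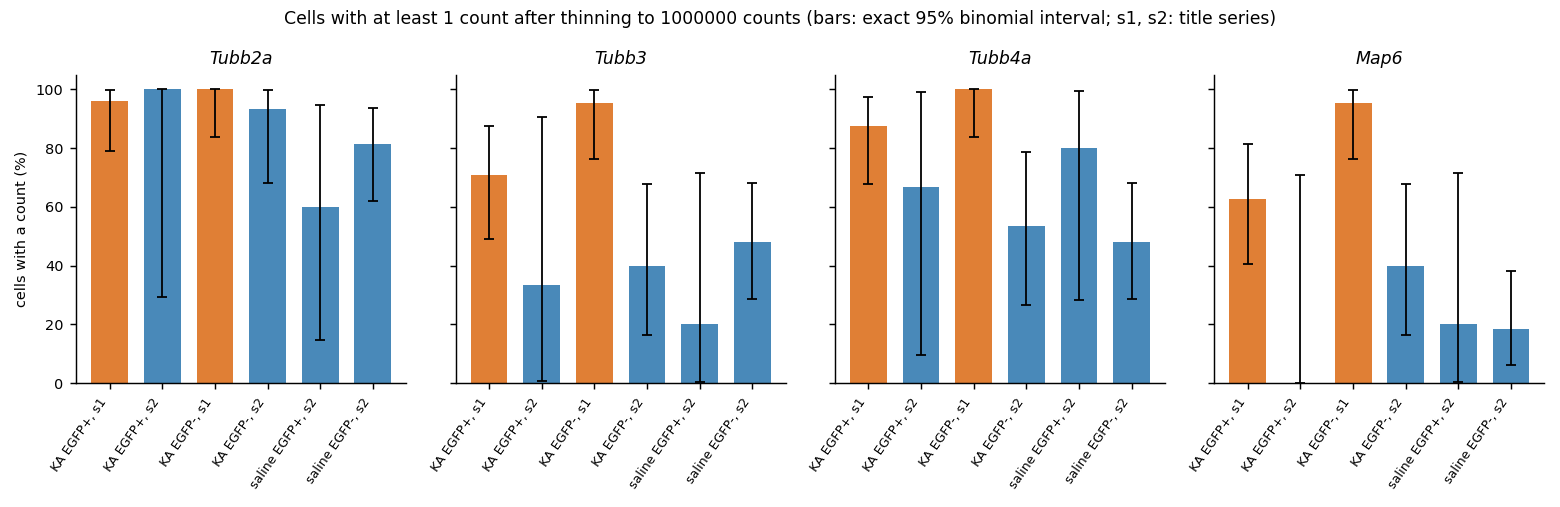
Share of cells with at least 1 count of Tubb2a, Tubb3, Tubb4a or Map6 after thinning each cell to 1000000 counts, by group and title series (s1, s2). Error bars are exact 95% binomial intervals over cells. Tubb3 and Map6 are each present in 95.2% of series 1 and 40% of series 2 KA EGFP- cells.

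Tubb3, Tubb4a and Map6 were also counted jointly in each cell. They are the 3 members with the widest differences between title series in KA EGFP- cells (5.14, 5.05 and 4.32, given below). A split of their joint counts by series therefore follows from the choice of genes and is no separate result. All 3 were at 100 CPM or more in 5 of 27 KA EGFP+, 12 of 36 KA EGFP-, 0 of 5 saline EGFP+ and 0 of 27 saline EGFP- cells. None of the 3 reached that level in 6, 4, 4 and 15 cells of these groups. All 12 KA EGFP- cells with the 3 genes together were of series 1, where no cell lacked all 3. There 17, 21 and 15 of the 21 cells reached 100 CPM of Tubb3, Tubb4a and Map6 taken singly. In series 2, 0 of 15 KA EGFP- cells had all 3, and 4 of 15 had none, against 15 of 27 saline EGFP- cells. Median genes detected also differ between these series, as given above, and the part of library complexity in these counts was not tested.

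The first comparison asked how KA differed from saline in EGFP- cells. Levels were averaged as log2(CPM + 1), and a difference of at least 1, a 2-fold change, was counted. Of the 10 genes 7 were higher by that measure in KA EGFP- cells, where 29.9% of the 8561 genes tested were, and 0 were lower, where 9.87% of genes were. The genes were chosen with this contrast known, so the counts are a description. By pooled CPM 5 were higher by that measure, against 21.8% of genes, with ratios of 1.75 for Mapt and 1.37 for Tuba1a. Without cells at 0.1% or more microglia counts 5 were higher, against 35.6% of genes, with Mapt at 0.89 and Tuba1a at 0.37. Map6 averaged 5.46 ± 3.71 in KA and 0.78 ± 2.19 in saline cells (SD over cells, n = 36 and 27). The difference was 4.68, and 12 of the genes tested had a larger one. Map6 had enough cells with a count to be ranked mainly through KA cells (26 of 36, against 6 of 27 saline cells). Tubb4a averaged 7.46 ± 3.88 and 3.34 ± 3.82 (4.12), and Tubb2a 9.53 ± 2.12 and 6.34 ± 3.77 (3.19). Tubb3 differed by 2.94, Mapt by 1.72, Dclk1 by 1.58 and Tuba1a by 1.27. Map2 (0.60), Tubb2b (0.60) and Map1b (0.57) lay close to the median of all genes, which was itself 0.45. The differences of Map6 and Tubb4a were larger than either SD over cells, those of Tubb2a and Tubb3 lay between the SDs of both groups, and the rest were smaller than both. For every member the cells of both groups overlapped.

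Inside title series 2, where 15 KA and the same 27 saline EGFP- cells can be set side by side, 4 of 10 members were higher by at least 1, against 9.22% of 7146 genes, and 0 were lower, against 38.4%. The median of all genes there was -0.63. Tubb2a differed by 2.47 (8.80 ± 3.08 in KA, 6.34 ± 3.77 in saline cells), Map6 by 2.16 (2.94 ± 4.10 and 0.78 ± 2.19), Tubb4a by 1.17 (4.51 ± 4.54 and 3.34 ± 3.82) and Tubb2b by 1.07 (3.82 ± 2.51 and 2.76 ± 2.75). Each of these is smaller than both SDs over cells. Mapt differed by 0.79, Dclk1 by 0.41, Tuba1a by 0.35 and Map2 by 0.10. Tubb3 (-0.06) and Map1b (-0.20) turned to a negative difference. For Tubb3 the mean and the pooled level parted, since pooled CPM was 135 (132 to 138) in series 2 KA and 26.4 (25.5 to 27.4) in saline EGFP- cells, with 3 KA cells above 100 CPM carrying the sum. All 10 members lay above the median of all genes in this series, by 0.43 for Map1b to 3.10 for Tubb2a. As many genes lie above that median as below it, and 35.9% of genes had a larger difference than Map1b. The members were chosen with these values known.

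**Figure D4:**
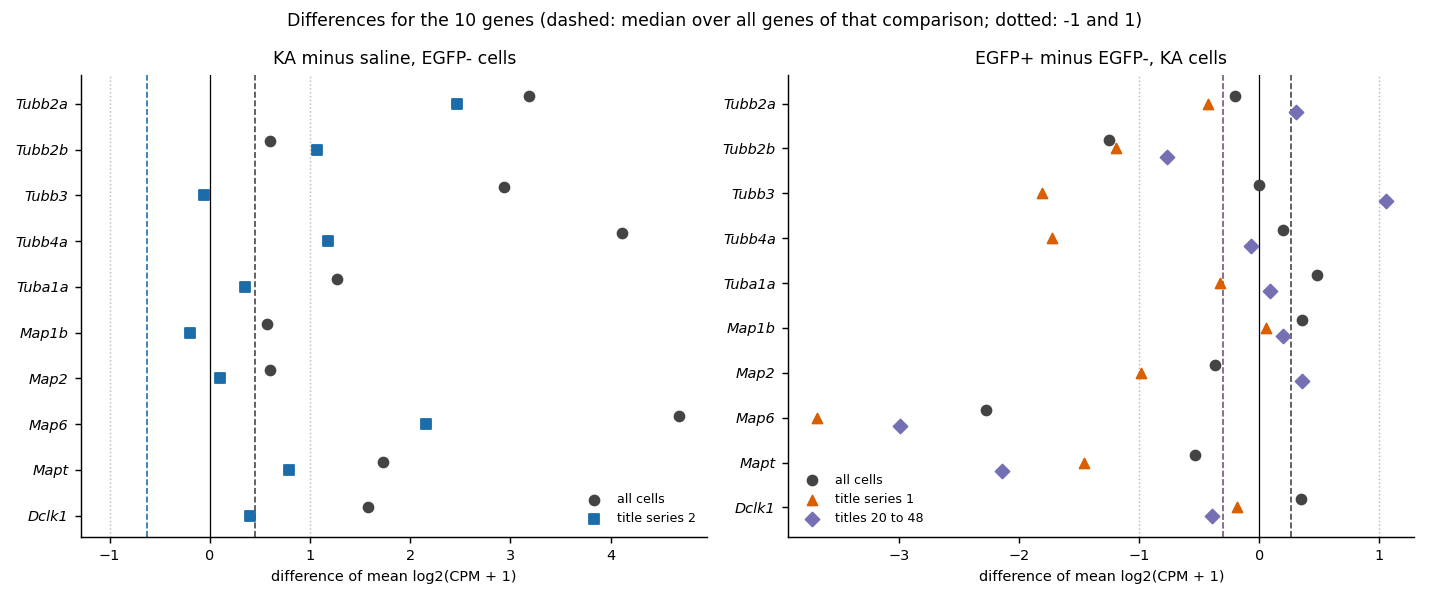
Difference of mean log2(CPM + 1) for each gene, KA minus saline in EGFP- cells (left) and EGFP+ minus EGFP- in KA cells (right). Dashed lines mark the median of all genes, in the colour of the comparison (0.45 and -0.63 on the left, 0.27 and, for both restricted sets, -0.30 on the right), and dotted lines mark -1 and 1. Map6 has the lowest value of the 10 genes in every set on the right, and in titles 20 to 48 Mapt (-2.14) lies nearest to it (-2.997), within the SDs over cells.

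The second comparison set EGFP+ against EGFP- cells after KA, that is, labelled granule cells with an axon to the other side against unlabelled ones. Of the 10 genes 0 were higher by at least 1, against 16.4% of 9266 genes, and 2 were lower, against 4.13%. Map6 averaged 3.18 ± 3.27 in EGFP+ and 5.46 ± 3.71 in EGFP- cells (n = 27 and 36), a difference of -2.28, and only 3 genes had a lower one. Tubb2b averaged 2.11 ± 2.88 and 3.36 ± 2.72 (-1.25). Both differences are smaller than the SDs over cells. The other 8 lay between -0.54 (Mapt) and 0.48 (Tuba1a), with Tubb3 at 0.00.

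The classes are unevenly spread over titles, so the restricted sets matter. In title series 1 (24 EGFP+ and 21 EGFP- cells), 5 members were lower by at least 1, against 20.2% of 9788 genes, and 0 were higher, against 6.09%. They were Map6 (-3.69), Tubb3 (-1.81), Tubb4a (-1.72), Mapt (-1.46) and Tubb2b (-1.19). Map6 averaged 3.58 ± 3.26 in EGFP+ and 7.26 ± 2.05 in EGFP- cells there, the lowest difference of all genes tested in that set. Only Map1b was not lower (0.06). The median of all genes in this set was -0.30, and 67.3% of genes had a lower difference than Map1b. Dclk1 (-0.18) also lay above that median. In titles 20 to 48, where both classes occur side by side, 5 EGFP+ and 21 EGFP- cells remain. Map6 differed by -2.997 and Mapt by -2.14 there, and 29.6% of genes were lower by at least 1. Tubb3 turned to 1.06 in these titles (16% of genes were higher by at least 1), Tubb4a was at -0.07 and Map2 at 0.36. The 5 EGFP+ cells of these titles all had Tubb3 and Tubb4a, at 214.5 to 457 and 265.3 to 1302 CPM. In series 2 the 3 EGFP+ cells had 0.0715, 0 and 0 CPM of Map6, whereas 6 of 15 EGFP- cells had a count, up to 581 CPM. Map6 was the one member lower by at least 1 in EGFP+ cells in each of these sets, and several others turned in series 2, with 3 EGFP+ cells. In that set 4 members were higher by at least 1 (Tuba1a 2.62, Mapt 2.44, Map2 2.21 and Tubb4a 1.72), against 36.9% of 5971 genes. Map6 (-2.91) and Tubb2a (-1.83) were lower, against 24.4%, and Tubb2b stood at 0.48.

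The 5 saline EGFP+ cells can be given singly. In title order Tubb2a stood at 252.4, 0, 308, 26.8 and 0 CPM. Dclk1 stood at 2.30, 0.741, 66.2, 0 and 9.39 CPM. Tuba1a stood at 954.8, 393, 1201, 42.8 and 56.3 CPM. The first of these cells and the third held most of the tubulin counts. Microglia marker counts made up 2.54%, 2.54%, 0.423%, 0.00131% and 4.57% of all counts in the same cells. Against saline EGFP- cells, whose 27 cells had a microglia median of 0.0268%, 9 members could be compared, and Map6 had too few cells with a count. Of these, 4 were lower by at least 1, against 42.2% of 8003 genes, and 1 was higher, against 12.6%. Of all genes past that measure 22.9% were higher, and 40.5% with trimmed-mean library sizes, which moved the median of all genes by 0.41. Dclk1 averaged 2.39 ± 2.41 in EGFP+ and 7.42 ± 3.28 in EGFP- cells, a difference of -5.02 that is larger than either SD, and it was below -3 under each alternative run. Tubb2a (-2.12), Tubb2b (-1.80) and Map2 (-1.21) were lower and Mapt (1.16) higher, each by less than the SD over saline EGFP- cells. Relative to the median of all genes, -0.70, Tubb2a was at -1.42 and Dclk1 at -4.32. The part of microglia RNA in these values was not tested. The 1 saline EGFP+ cell under 0.1% microglia counts had 0 Dclk1 counts.

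Those same 5 cells are the saline side of KA against saline in EGFP+ cells, so this comparison shares them with the one before. Of the 10 genes 9 were higher by at least 1 in KA EGFP+ cells, against 59.6% of 9589 genes, 0 were lower, against 8.54%, and the median of all genes was 1.36. Tubb3 and Map6, 2 of these 9, had enough cells with a count to enter mainly through KA cells. Each had a count in only 1 of the 5 saline EGFP+ cells. Of all genes past that measure 87.5% were higher, and 77.2% with trimmed-mean library sizes, which moved that median by -0.42. Dclk1 averaged 9.34 ± 2.14 in KA and 2.39 ± 2.41 in saline EGFP+ cells, a difference of 6.95, and 4 genes had a larger one. Tubb2a differed by 5.11, Tubb4a by 4.92 and Tubb3 by 3.48, and Mapt by 0.03. With the 3 series 2 KA EGFP+ cells alone, 7 members were higher by at least 1, against 37.5% of 8561 genes, Dclk1 at 4.56 and Tubb2a at 2.76, while Map6 (-0.82) and Map1b (-0.24) were negative.

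Title series 1 against series 2 within KA EGFP- cells, cells of the same treatment and class, differed widely. Of the 10 members 8 were higher by at least 1 in series 1, against 70.3% of 9138 genes, with a median of all genes of 1.64. Tubb3 averaged 7.29 ± 2.08 in series 1 and 2.16 ± 3.48 in series 2 (5.14), Tubb4a 9.56 ± 0.88 and 4.51 ± 4.54 (5.05) and Map6 7.26 ± 2.05 and 2.94 ± 4.10 (4.32). For all 3 the difference is larger than either SD. Tubb2a differed by 1.24, below the median of all genes, and Tubb2b by -0.80. Of the 3 members with the largest differences of KA against saline, Tubb2a moved least when only series 2 was used (3.19 and 2.47), and Map6 and Tubb4a moved by more than 2.

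Other genes of the microtubule system were counted from 9 lists of 124 genes: other tubulins, other microtubule-associated proteins, end-binding and linker proteins, stathmins, motors, severing enzymes, tubulin-modifying enzymes, tubulin-folding factors and kinases of these proteins. In KA against saline EGFP- cells 104 had enough cells with a count. Of these 33 were higher by at least 1, against 29.9% of all genes tested, and 7 lower, against 9.87%. Their median was 0.46 beside 0.45 over all genes. The same shares over all genes stand beside the counts of the single lists that follow. Folding factors (8 of 15 higher, 0 lower, median 1.12) and end-binding and linker proteins (8 of 16 higher, 1 lower, median 0.92) had the highest medians. Of the other tubulins 2 of 8 were higher and 0 lower (median 0.28), of the other associated proteins 2 of 13 were higher and 2 lower (-0.18). Motors had 6 of 23 higher and 2 lower (0.42), modifying enzymes 5 of 13 and 0 (0.88), stathmins 1 of 4 and 1 (-0.19), severing enzymes 1 of 4 and 0 (0.64) and kinases 0 of 8 and 1 (-0.07). In series 2 alone, 97 passed, 8 were higher, against 9.22% of all genes, and 39 lower, against 38.4%. The median there was -0.82 beside -0.63 over all genes, and the folding factors had 3 of 14 higher and 5 lower.

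Single genes of these lists with the widest differences that kept their sign inside series 2 were as follows. Kif21b, a kinesin motor, averaged 4.65 ± 3.63 in KA and 0.84 ± 2.14 in saline EGFP- cells, a difference of 3.80 (3.28 in series 2). It had a count in 26 of 36 KA and 4 of 27 saline cells. Stmn1, which binds free tubulin dimers and promotes disassembly, averaged 3.04 ± 3.27 and 6.37 ± 2.75, a difference of -3.33 (-3.63 in series 2). The large linkers between microtubules and actin, Dst and Macf1, differed by 3.02 and 2.88 (2.28 and 2.26 in series 2). The axonal kinesin gene Kif1a differed by 2.50, Nav2 by 2.34, the folding cofactor gene Tbcd by 2.34 and the kinase gene Gsk3a by -2.17.

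For EGFP+ against EGFP- cells after KA, 106 of the 124 genes passed. Of these 13 were higher by at least 1, against 16.4% of all genes, and 7 lower, against 4.13%. The median was 0.23 beside 0.27 over all genes. In series 1 the counts were 6 higher, against 6.09% of all genes, and 33 lower, against 20.2%, with a median of -0.59 beside -0.30. Map1s, a relative of Map1b, averaged 5.25 ± 3.37 in EGFP+ and 2.98 ± 3.58 in EGFP- cells, a difference of 2.27 (1.22 in series 1). Tubg2, a gamma tubulin of the nucleating complex, differed by 1.92 (1.61 in series 1), and Macf1 by -1.75 (-2.29 in series 1). Tpgs1, a subunit of the polyglutamylase complex, and the beta tubulins Tubb4b and Tubb6 differed by 1.75, 1.64 and 1.60, with 0.05, 0.43 and 1.24 in series 1.

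Across the 95 cells, with levels centred on the mean of each group and title series, the 10 genes were mostly weakly related. The median Spearman rho of the 45 pairs was 0.15, and 15 pairs lay between -0.1 and 0.1. Tubb2a and Tuba1a, a beta and an alpha tubulin, had the highest rho at 0.60 (0.69 in series 1, 0.55 in series 2). Tubb2a and Tubb2b followed at 0.53, a pair with shared sequence windows, then Tubb2a and Tubb4a at 0.46 and Tubb2a and Dclk1 at 0.43. Among Map1b, Map2, Map6 and Mapt the highest pair was Map2 with Map6, at 0.25. All values of a cell share its library and depth. The Spearman correlation with the number of genes detected was highest for Tubb4a (0.43), Mapt (0.34) and Tubb3 (0.32) and near 0 for Dclk1 (0.06) and Map1b (-0.09). For Map6 it was 0.19. Inside the 27 saline EGFP- cells alone it was highest for Map6 (0.60), Tuba1a (0.51) and Tubb4a (0.49).

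**Figure D5:**
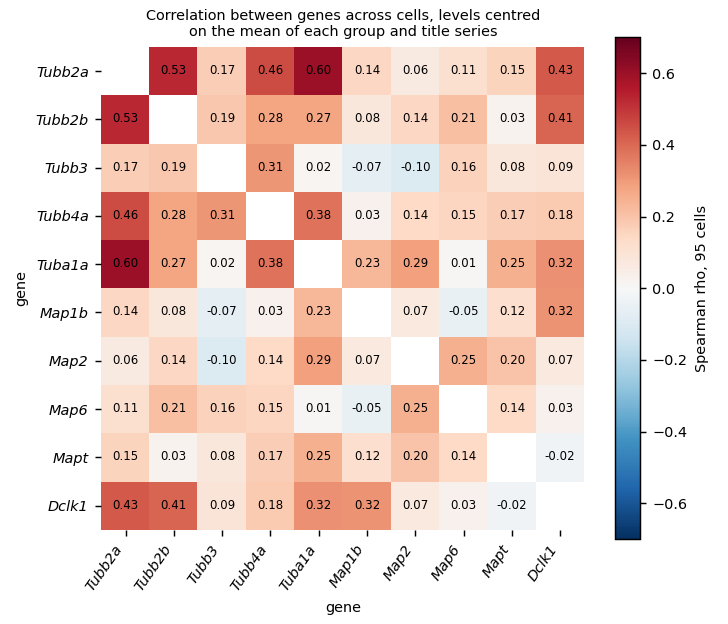
Spearman rho between the 10 genes over 95 cells after centring each gene on its mean in each group and title series. Tubb2a with Tuba1a (0.60) and with Tubb2b (0.53) are the only pairs above 0.5.

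Among 4567 genes with a count in at least 50% of cells, those most like a member by the same measure were searched, keeping rho of at least 0.5 over the 95 cells. Outside the set, Dclk1 was most like Schip1 (0.61) and Atp6v1a (0.59), Map2 like AC149090.1 (0.61) and Jmjd1c (0.56), and Tubb4a like Necap1 (0.56) and Ywhag (0.52). Tuba1a was like the neurofilament gene Nefm (0.55), Map1b like Fkbp1a (0.53), and Mapt like 2010300C02Rik (0.51) and Grk2 (0.50). Several of these were uneven between title series: Dclk1 with Atp6v1a had 0.09 in series 1 and 0.64 in series 2, and Tubb4a with Ywhag 0.15 and 0.49. Tubb3 and Map6 had no gene at that level.

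The promoters of Tubb2a and Tubb4a are shown because these were the beta tubulins with the widest differences in KA against saline EGFP- cells. RefSeq promoters (build GRCm38.p6, 250 bases before to 50 after the start) were found for 7 of the 10 genes. Capitals mark matches on either strand to the TATA box TATAAA, the GC box GGGCGG, the core of the cyclic AMP response element TGACG, and its full palindrome TGACGTCA, which contains the core. The first is chr13:34077959-34078258 and the second chr17:57087551-57087850, both on the minus strand.
Tubb2a: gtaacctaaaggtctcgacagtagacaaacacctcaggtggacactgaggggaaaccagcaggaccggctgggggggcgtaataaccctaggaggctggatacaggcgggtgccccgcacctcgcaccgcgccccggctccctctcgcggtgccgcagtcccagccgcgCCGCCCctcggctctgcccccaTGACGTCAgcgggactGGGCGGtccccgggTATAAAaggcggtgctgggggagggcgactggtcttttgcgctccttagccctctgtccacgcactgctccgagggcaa
Tubb4a: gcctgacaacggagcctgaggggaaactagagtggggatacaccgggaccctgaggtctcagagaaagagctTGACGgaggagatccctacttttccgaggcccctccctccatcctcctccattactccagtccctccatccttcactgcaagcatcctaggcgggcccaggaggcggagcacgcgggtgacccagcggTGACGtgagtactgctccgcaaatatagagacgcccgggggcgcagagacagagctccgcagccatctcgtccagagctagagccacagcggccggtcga
TATAAA occurs in 13.6%, GGGCGG in 35.6%, TGACG in 20.8% and TGACGTCA in 1.79% of all 32817 promoters of this length. Tubb2a held TATAAA once, at -29 from the start, GGGCGG at -81 and -43, and TGACGTCA at -59. Tubb4a held TGACG at -178 and -50 and none of the other 3. Among the other members with a promoter, Tubb3 had GGGCGG at 2 places, Map2 at 5, Map1b at 2 and Tuba1a at 1, Map1b had TATAAA at -99, and both Dclk1 promoters held none of the 4 motifs. These matches are letters in a window and say nothing of binding.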

How the data were processed

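Each sample is the cytosol of 1 granule cell, made into a Nextera XT library. Trimmomatic, kallisto, featureCounts and STAR are named with build GRCm38, per the submitters' processing notes, and their roles and versions are not given in the sources used here. The authors deposited a count of reads for each gene symbol, in all cells and in those kept by their quality control, plus a normalized signal for the quality-controlled cells, which is the count times 1 factor per cell (0.118 to 147.5). The 95 cells of the quality-controlled table were used, with groups from the labels as given; 13 of them are labelled as failed and 82 as passed, which may mean displaced quality labels. Strand use in counting is not stated in the labels.

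CPM (counts scaled to 1000000 per cell) were computed over 22870 genes, leaving out 92 spike-in rows (6 counts). Differences are of mean log2(CPM + 1) over genes with a count in at least 25% of the cells compared. No test was made, because no label names the mouse of a cell. Shares of cells followed thinning to 1000000 counts. Library-size factors of an alternative came from edgeR 4.0.16 in R 4.3.3, and Python 3.11.15 with scipy 1.17.1 did the rest. The computation of the difference was run on simulated counts with known log2 changes of -2, -1, 1 and 2. Mean values returned were -1.92, -1.07, 0.96 and 2.03, after the median of all genes was subtracted, which was not done for the reported differences. The simulated counts lacked the high-or-absent spread of these cells, so they check the arithmetic only. Windows of 50 bases were compared between all annotated transcripts. Named pathway genes are up to 8 per comparison with a difference of at least 1.5 in size and the same sign inside the title series. Members and lists were chosen with earlier results of these data known. The alternatives tried were other scalings, pseudocounts, filters and cell sets.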

Additional observations from a re-analysis of the deposited data

Results flagged for a closer look

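In the 5 saline EGFP+ cells, 1 cell stood apart from the other 4 for each of 2 genes, by the gap to the nearest cell. The other 4 are tied at 0, so any level above 0 passes this measure, its usual chance rate of about 1 in 20 groups does not hold, and 10 genes were screened. Tubb3 was at 8.37 on the log2 scale in that cell and at 0 in the other 4. Map6 was at 4.25 in another cell and at 0 in the other 4.

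The 20 cells outside the quality-controlled table enter no comparison, and 7 of the 10 genes had a higher pooled level there than in saline EGFP- cells. They are 2 KA EGFP+, 2 KA EGFP-, 2 saline EGFP+ and 14 saline EGFP- cells by label. Tubb2a stood at 1181 CPM in them and 404 CPM in saline EGFP- cells. Tuba1a stood at 1013 and 779 CPM, Map1b at 637 and 558 CPM, and Dclk1 at 438 and 435 CPM. Map2 stood at 261.8 and 256.7 CPM, Mapt at 189 and 162 CPM, and Tubb4a at 157 and 100.5 CPM. These cells had a median of 474183 counts, and Tubb4a had a count in only 3 of the 20.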

How the results depend on the processing

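Tubb2a, Tubb4a and Map6 were higher by at least 1 in KA than in saline EGFP- cells under all 14 alternatives (1.51 to 3.74, 1.16 to 5.07 and 2.16 to 6.53), and Map6 was lower by at least 1 in EGFP+ than in EGFP- KA cells under all 16 (-4.19 to -1.59). The alternative without a gene filter cannot move the value of a single gene. The share of all genes that kept such a difference under every alternative was not computed. In KA against saline EGFP- cells, 4 members were higher in series 2, where Tubb3 reversed to -0.059. In series 2 cells with 3000 or more genes, chosen after seeing the data, 1 member was lower (38.7% of all genes), with Tubb3 at -0.57 and Tuba1a at -1.03. In EGFP+ against EGFP- KA cells, 1 member was lower with a pseudocount of 10 (0.637% of all genes) and in cells with 3000 or more genes (3.37%), 5 in series 1 and 4 (19.2%) in series 1 without microglia-rich cells (added after seeing the data). There 1 was higher in titles 20 to 48 and 4 in series 2, where Tubb2b reversed to 0.48. In EGFP+ against EGFP- saline cells, 7 were lower in cells labelled as passed (56.3% of all genes) and 8 without microglia-rich cells (80.1%), a set with 1 saline EGFP+ cell, in which Mapt reversed to -2.01. There 2 were higher with trimmed-mean library sizes (21.6%) and 0 with a pseudocount of 10 (6.72%), with pooled CPM (15.98%) and in cells with 3000 or more genes (9.75%). Leaving out each saline EGFP+ cell gave 0 to 1 higher (10.1% to 19.9% of all genes) and 3 to 6 lower (37.98% to 53.9%). In KA against saline EGFP+ cells, 1 was lower with the authors' signal (13.2% of all genes), with trimmed-mean library sizes (14.3%) and without microglia-rich cells (5.92%, with 82.6% higher). That last set rests on the same 1 saline EGFP+ cell, the only one of the 5 with a Tubb3 count, and there Tubb3 reversed to -3.05. In series 2 Map1b (-0.24) and Map6 (-0.82) reversed. Leaving out each saline EGFP+ cell gave 6 to 9 higher, against 54.4% to 67.1% of all genes, and 0 lower, against 6.79% to 12.8%. Of the other values of single genes, 612 moved by less than the spread over cells and 10 by more. A reversal was counted only where the main difference was at least 1 in size, so smaller differences could change sign uncounted. Tubb3 in EGFP+ against EGFP- saline cells, at -0.54 in the main run, reached 6.59 under an alternative. The cause of these changes was not tested. The authors' signal moved the median of all genes by 0.10 in EGFP- and 0.19 in EGFP+ cells for KA against saline. No paired analysis was possible because the labels give no replicate numbers that groups share.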

Other observations

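Several abundant genes of the same system outside the 10 differed little between KA and saline EGFP- cells over both title series, and were chosen here after their values were seen. The alpha tubulin genes Tuba4a and Tuba1b averaged 7.30 and 6.90 on the log2 scale in KA EGFP- cells, against 7.13 and 6.34 in saline EGFP- cells. Inside title series 2 their differences were -1.63 and 0.04, so Tuba4a was lower there by more than 2-fold. Map4, a widely expressed microtubule-associated protein, averaged 7.19 in KA and 7.14 in saline EGFP- cells (-0.20 inside series 2). The stathmin genes did not move together: Stmn3 averaged 9.13 in KA and 6.99 in saline EGFP- cells, Stmn4 4.604 and 5.38, and Stmn2 3.66 and 3.26. Inside title series 2 the differences of Stmn3, Stmn4 and Stmn2 were 0.50, -3.26 and -0.84. Dcx, a doublecortin relative of Dclk1 made by young neurons, averaged 0.43 in KA and 0.59 in saline EGFP- cells. Cct8, a subunit of the chaperonin that folds tubulin, averaged 6.89 in KA and 4.78 in saline EGFP- cells, with a difference of 1.12 inside series 2. The other chaperonin subunits of the list (Tcp1, Cct2, Cct3, Cct4, Cct5, Cct6a and Cct7) were all negative inside series 2, from -1.78 (Cct7) to -0.40 (Cct4).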
